A study of Mus musculus with 2 samples.

Results

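The DEAD-box and DEAH-box RNA helicases were taken as all genes of the deposited table whose symbol is Ddx or Dhx followed by a number and at most 1 letter. The pattern found 52 of the 56791 genes in the table, 36 with a Ddx and 16 with a Dhx symbol. They were compared in RAW264.7 cells, a mouse line of monocyte and macrophage leukaemia cells labelled wild type. One culture received 20 ng of recombinant mouse IL4 together with 10000000 particles of FAPD10-exos for 24 h, and the other, labelled vehicle, is read as having received the same IL4 treatment alone. IL4 drives macrophages towards the M2 state, and on that reading both cultures carry the treatment. The polarisation state of the cells was not tested. The labels do not say what FAPD10 stands for or what the vehicle held. Each group is 1 library from 1 cell line, so the differences have no replicate check, no test was possible and every ratio compares these 2 libraries only.

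RNA helicases of these families use ATP to pull short RNA duplexes apart or to strip proteins from RNA. They share a core of RecA-like domains whose motif II, also called the Walker B motif, binds ATP and magnesium, and the families are named from that motif in the one-letter code. DEAD-box members act locally on short duplexes, whereas DEAH-box members move along a strand, and several of them are switched on by G-patch proteins. Together they drive the steps of splicing, the building of ribosomes in the nucleolus, the export of mRNA, the start of translation, the decay of mRNA and the sensing of viral RNA in macrophages and other cells.

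Sequencing gave 37196241 counts on 20489 genes in FAPD10-exos cells and 36152743 counts on 21012 genes in vehicle cells. All 9 macrophage markers looked up (Ptprc, Cd68, Csf1r, Adgre1, Itgam, Lyz2, Cd14, Fcgr1 and Spi1) were detected in both libraries, with a summed level of 2220 CPM, a count scaled to a common library size, in the FAPD10-exos and 2425 CPM in the vehicle library. They did not move together: Adgre1 was 2.91-fold and Spi1 1.60-fold higher, and Ptprc was 1.55-fold lower in FAPD10-exos cells. Of 10 markers of fibroblasts, endothelium, lymphocytes and epithelium, 5 were at 0 in both libraries, Col1a1 and Col1a2 among them, and all 10 summed to 32 counts in the FAPD10-exos and 14 counts in the vehicle library. Of those counts, Pecam1, an endothelial adhesion molecule that myeloid cells can also carry, had 24 in the FAPD10-exos and 6 in the vehicle library. The part of other cell types in the results was not tested.

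As a group, the helicases took a smaller share of the counts in FAPD10-exos cells. They held 371826 counts, or 0.9996% of the library, in FAPD10-exos cells and 489302 counts, or 1.35%, in vehicle cells. Because the RNA was read in bulk, fewer cells with a transcript and less of it per cell cannot be told apart. A member was called measured at a mean of at least 1 CPM, which is 35.6 counts in the FAPD10-exos and 37.8 counts in the vehicle library after scaling. Of the 52 members, 50 were measured. The other 2 were Ddx4, a germ-cell helicase listed at 0 in both libraries, and Ddx25, a testis helicase with 4 counts in the FAPD10-exos and 2 counts in the vehicle library. For Ddx4 a count of 0 allows up to 0.0843 CPM in the FAPD10-exos and 0.0794 CPM in the vehicle library.

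Ratios are FAPD10-exos over vehicle, and the range after each ratio or fold is its 95% counting interval, which covers counting error only and takes each count as an independent read. A member was called higher or lower when the libraries differed at least 1.5-fold and the interval excluded 1. By that rule 4 members (8%) were higher in FAPD10-exos cells, where 17.1% of all 12264 measured genes were, and 17 members (34.0%) were lower, where 19.8% of all measured genes were. At least 2-fold apart were 1 higher member, Ddx56, and 4 lower members, Ddx60, Ddx3x, Ddx3y and Dhx37, beside 4.19% and 8.64% of all measured genes. The deposited table, for which no usable genome build was stated, places Ddx56 at chr11:6208919-6217772, Ddx60 at chr8:62381121-62491278, Ddx3x at chrX:13147209-13160291, Ddx3y at chrY:1260771-1286629 and Dhx37 at chr5:125490922-125511185, and its counts are over whole genes, with all exons joined. The ratio was above 1 in 17 members and below 1 in 33. The median log2 ratio of the members was -0.24, with a range from -1.63 to 1.04, and the median over all measured genes was 0.01. The interval held 1 for 3 members, Ddx50, Ddx31 and Dhx58. With counts halved, since both ends of a read pair may have been counted, more intervals held 1. These were also those of Ddx51, Ddx43, Ddx55, Ddx41, Ddx39a and Dhx40. Long transcripts were lower than short ones across all genes of these libraries, so each log2 ratio is also given after subtracting the running median of genes of similar transcript length. After that correction the median of the members was -0.16, with 6 members higher and 8 lower, beside 10.2% and 12.1% of 9968 measured protein-coding genes. With the exon length of the deposited table in its place, 5 members were higher and 8 lower, beside 12.3% and 16.2% of all measured genes.

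**Figure D1:**
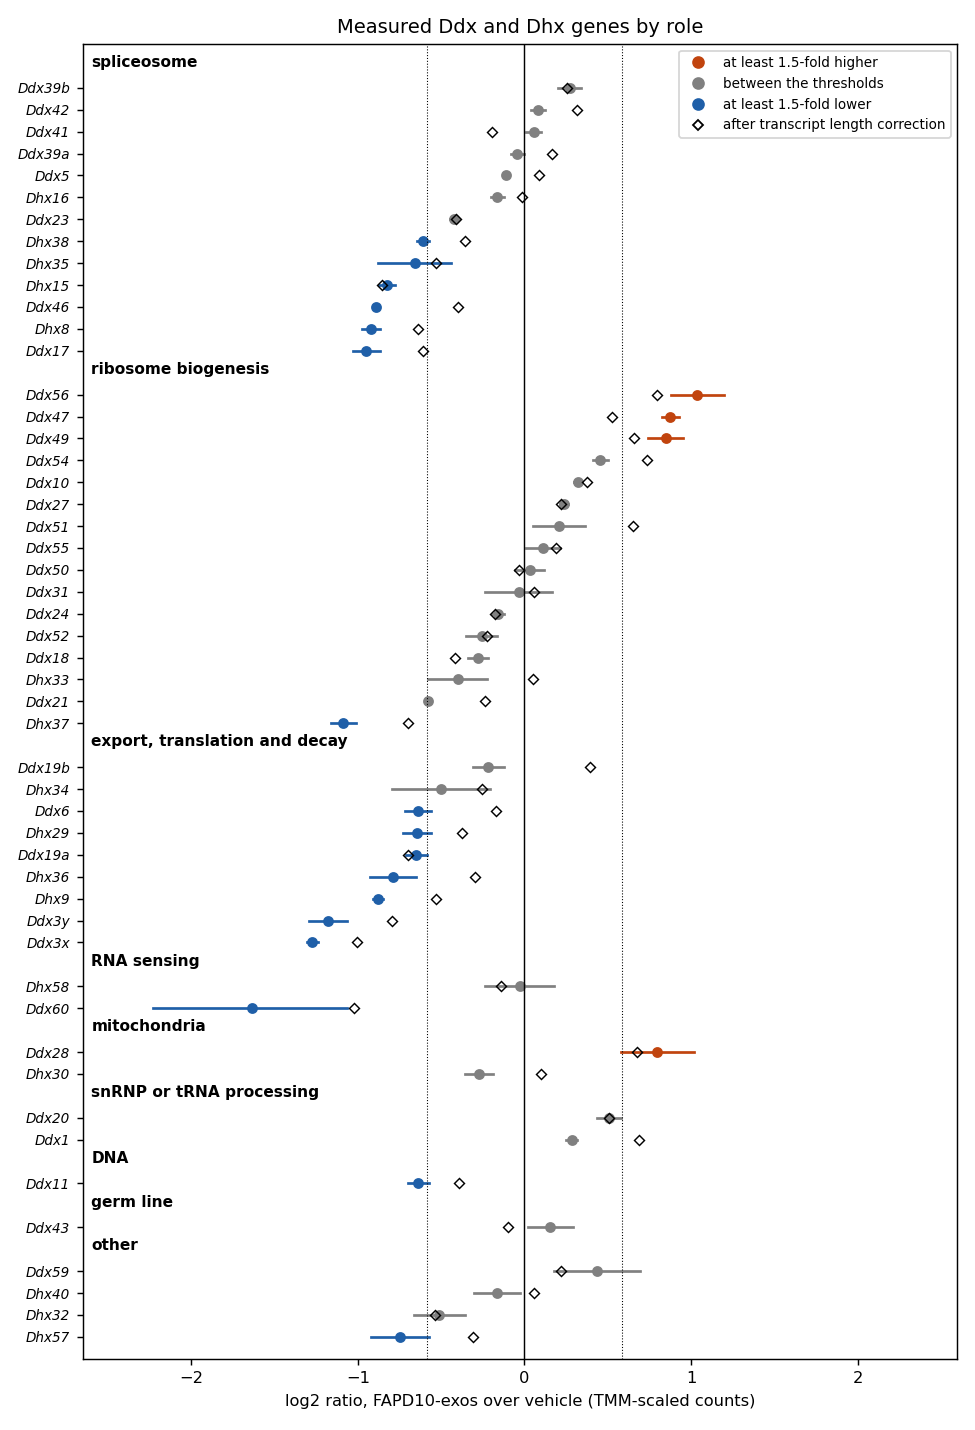
Log2 ratio of FAPD10-exos over vehicle (horizontal axis) for the 50 measured members, ordered within role; filled points are ratios of scaled counts, bars are 95% counting intervals, open diamonds are values after transcript length correction, and dotted lines mark 1.5-fold. Within export, translation and decay all 9 points lie left of 0, and the 4 orange points at least 1.5-fold higher sit among ribosome biogenesis and mitochondria.

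The motif that gives the families their names differs between the members. In the coding sequences of GENCODE M21 the first stretch that encodes aspartate, glutamate, then alanine, valine, isoleucine or cysteine, then aspartate or histidine was taken as motif II, and it was found in 50 of the 52 members, but not in Ddx52 or Dhx32. The stretches below, shown for members at both ends of the range and for the variants of the motif, are 42 bases of coding strand, 5′ to 3′, with the 4 codons of motif II in capitals.
Ddx3x: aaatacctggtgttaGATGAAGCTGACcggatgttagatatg
Ddx3y: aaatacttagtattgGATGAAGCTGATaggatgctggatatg
Ddx46: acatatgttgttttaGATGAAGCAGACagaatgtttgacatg
Ddx47: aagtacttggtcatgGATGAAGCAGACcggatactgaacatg
Ddx56: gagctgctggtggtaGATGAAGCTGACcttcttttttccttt
Ddx21: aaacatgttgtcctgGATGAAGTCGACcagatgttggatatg
Ddx39b: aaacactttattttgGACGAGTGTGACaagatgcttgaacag
Dhx37: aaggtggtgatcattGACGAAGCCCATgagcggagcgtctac
Dhx8: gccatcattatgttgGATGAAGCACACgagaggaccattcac
Dhx15: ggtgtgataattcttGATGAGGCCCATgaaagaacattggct
Dhx9: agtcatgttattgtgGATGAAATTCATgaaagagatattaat
Ddx60: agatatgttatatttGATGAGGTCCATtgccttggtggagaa
Dhx58: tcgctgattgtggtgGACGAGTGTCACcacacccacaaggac
The first 7 end the motif in an aspartate codon and the last 6 in a histidine codon. Ddx60 is thus named for the DEAD family but encodes a histidine at the last place, as does Ddx11, a DNA helicase. Ddx21 has valine and Ddx39b cysteine at the place before the last, where most members have alanine.

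Among the 17 measured members whose motif II ends in histidine, 0 were higher and 11 were lower, and the ratio was below 1 in all 17. Among the 31 measured members whose motif ends in aspartate, 4 were higher and 6 were lower, with ratios above 1 in 17 and below 1 in 14. The median log2 ratio was -0.65 for the histidine and 0.06 for the aspartate members. Transcript length differed between these classes too, with a median of 4463 nt for the histidine and 3128 nt for the aspartate members. After transcript length correction the medians were -0.36 for the histidine and 0.17 for the aspartate members, and 14 of the 17 histidine members were still below 0. Then 0 histidine members were higher and 4 lower, and 6 aspartate members were higher and 4 lower. Of measured protein-coding genes, 10.2% were higher and 12.1% lower after that correction. By counts, the histidine members held 14.4% (14.3 to 14.6%) of all member counts in FAPD10-exos cells and 18.4% (18.3 to 18.5%) in vehicle cells, with exact binomial intervals for counting error only. The split by symbol was alike. Of 34 measured Ddx genes 4 were higher and 8 lower, where 17.1% and 19.8% of all measured genes were. Of 16 Dhx genes 0 were higher and 9 lower, with a ratio above 1 in 0 of the 16. The median transcript had 4394 nt for the Dhx and 3190 nt for the Ddx genes. After transcript length correction 0 Dhx genes were higher and 3 lower, and 6 Ddx genes were higher and 5 lower. The choice of this split was made after the values were seen, and it was given no test.

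**Figure D2:**
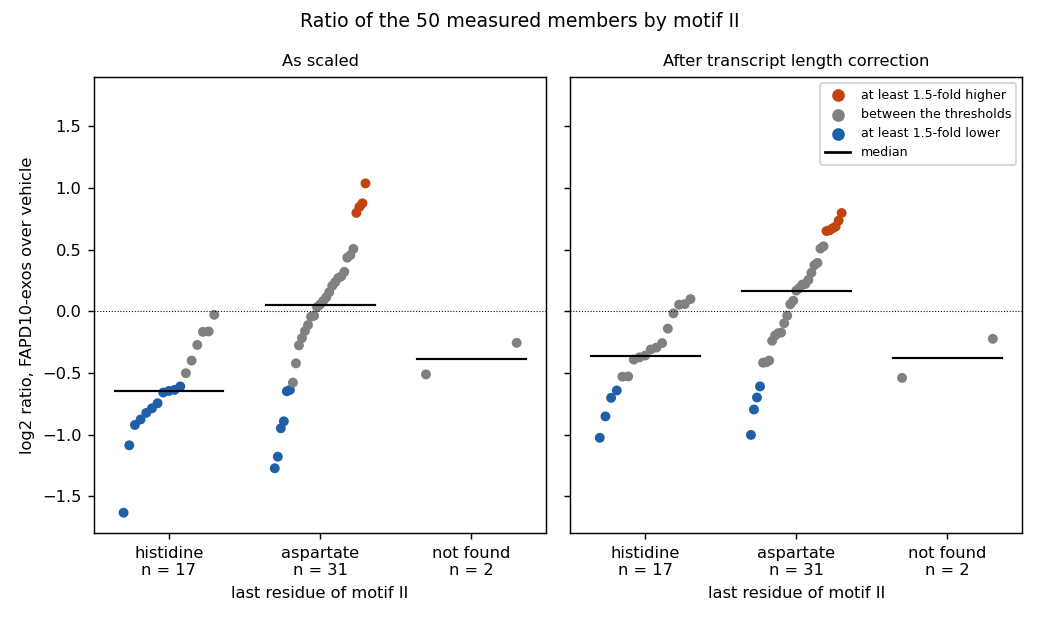
Log2 ratio of FAPD10-exos over vehicle for the 50 measured members, grouped by the last residue of motif II, as scaled (left) and after transcript length correction (right); each point is a gene and each line the median of its group. The 17 histidine members lie between -1.63 and -0.03 on the left and between -1.03 and 0.10 on the right.

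Helicases of the spliceosome were lower as a group. Of 13 measured members 0 were higher and 6 (46.2%) were lower, beside 17.1% and 19.8% of all measured genes. Their median log2 ratio was -0.42. After transcript length correction the median was -0.36 and 3 stayed lower, Dhx15, Dhx8 and Ddx17, beside 12.1% of measured protein-coding genes. After exon length correction the median was -0.25 and 3 were lower, beside 16.2% of all measured genes. Ddx46, the mammalian Prp5 that lets the branch site pair with U2 snRNA, had 860.4 CPM in FAPD10-exos and 1596 CPM in vehicle cells (30616 and 60328 counts), 1.86-fold lower (1.83 to 1.88), and -0.40 in log2 after length correction. The helicases named after yeast Prp16, Prp22 and Prp43, which act in turn at the second catalytic step, at mRNA release and at the taking apart of the spliceosome, were all lower. Dhx38, the Prp16 counterpart, had 259.5 CPM in FAPD10-exos and 396 CPM in vehicle cells, 1.52-fold lower (1.49 to 1.57). Dhx8, the Prp22 counterpart, had 109.6 CPM in FAPD10-exos and 208 CPM in vehicle cells, 1.89-fold lower (1.82 to 1.97). Dhx15, the Prp43 counterpart, had 149 CPM in FAPD10-exos and 264 CPM in vehicle cells, 1.77-fold lower (1.71 to 1.83), and it stood at -0.85 after transcript length correction, but at -0.36 after exon length correction, inside the limit.

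The remaining lower members of the spliceosome were Ddx17, which with its paralog Ddx5 acts in splice-site choice and microRNA processing, and Dhx35, found in catalytically active spliceosomes. Ddx17 had 54.2 CPM in FAPD10-exos and 104 CPM in vehicle cells, 1.93-fold lower (1.83 to 2.04). Dhx35 had 7.90 CPM in FAPD10-exos and 12.5 CPM in vehicle cells, 1.58-fold lower (1.36 to 1.84). The following members lay inside the limits as scaled. Ddx23, the Prp28 counterpart that swaps U1 for U6 at the donor site, had 520.2 CPM in FAPD10-exos and 697 CPM in vehicle cells, and stood at -0.41 after transcript length correction. Dhx16, the Prp2 counterpart that remodels the spliceosome before the first step, had 286 CPM in FAPD10-exos and 319.6 CPM in vehicle cells. Ddx41, a helicase of late spliceosomes that has also been described as a DNA sensor, had 238 CPM in FAPD10-exos and 229 CPM in vehicle cells. Ddx23 and Dhx16 thus had ratios below 1 and Ddx41 a ratio above 1. Ddx42, which acts on U2 snRNP, had 253 CPM in FAPD10-exos and 239 CPM in vehicle cells. Ddx39b, which acts in early spliceosomes and mRNA export, had 108.9 CPM in FAPD10-exos and 90.3 CPM in vehicle cells, and its paralog Ddx39a had 265.2 CPM in FAPD10-exos and 273 CPM in vehicle cells. Ddx5 had 1391 CPM in FAPD10-exos and 1502 CPM in vehicle cells, 1.08-fold lower (1.07 to 1.09). As 22.7% of the 50-base words of its transcripts also occur in transcripts of other genes, pseudogenes among them, its count is uncertain.

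Ribosome biogenesis helicases work on pre-ribosomal RNA in the nucleolus. Of 16 measured, 3 (18.8%) were higher and 1 (6.25%) was lower, beside 17.1% and 19.8% of all measured genes, so the higher share was near that of all genes. The group had a median log2 ratio of 0.07 that turned to -0.05 when libraries were scaled by total counts, where the median of all measured genes was -0.12 and the split was 3 higher and 2 lower. The median was 0.12 after transcript length correction, with 4 higher and 1 lower, and 0.24 after exon length correction, with 5 higher and 1 lower. Ddx56, a nucleolar helicase of the large subunit, had 26.4 CPM in FAPD10-exos and 12.8 CPM in vehicle cells (938 and 485 counts), 2.05-fold higher (1.84 to 2.30). Ddx47, which acts on the small-subunit precursor, had 258 CPM in FAPD10-exos and 141 CPM in vehicle cells, 1.84-fold higher (1.77 to 1.899). Its transcript is the shortest of the measured members. After transcript length correction it stood at 0.53 in log2, inside the limit, but after exon length correction at 1.15, past it. Ddx49 had 55.8 CPM in FAPD10-exos and 31.0 CPM in vehicle cells, 1.80-fold higher (1.67 to 1.94). Its value is uncertain, because Homer3 covers 29.8% of its exons and no source used here states whether strands were kept apart.

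The single lower member of the group was Dhx37, which releases the U3 small nucleolar RNA from the small-subunit precursor. It had 58.1 CPM in FAPD10-exos and 123 CPM in vehicle cells (2067 and 4661 counts), 2.12-fold lower (2.02 to 2.24), and stayed lower after length correction, at -0.70. Ddx21, the nucleolar helicase with the highest level per length in vehicle cells, had 1135 CPM in FAPD10-exos and 1694 CPM in vehicle cells. At 1.49-fold lower (1.47 to 1.51) it lay just inside the 1.5-fold limit, next to Dhx38 just outside it. The next most abundant members of the group went the other way. Ddx10 had 843 CPM in FAPD10-exos and 675 CPM in vehicle cells, 1.25-fold higher (1.23 to 1.27). Ddx27 had 880.0 CPM in FAPD10-exos and 747 CPM in vehicle cells, 1.18-fold higher (1.16 to 1.198). Both are needed to process pre-ribosomal RNA.

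The other nucleolar helicases lay inside the limits. Ddx54 had 247 CPM in FAPD10-exos and 179.7 CPM in vehicle cells, and it was among the higher members after length correction, at 0.74. Ddx51 had 19.8 CPM in FAPD10-exos and 17.1 CPM in vehicle cells, and likewise stood at 0.65 after that correction. With exon length correction Ddx51 stood at 0.38, inside the limit, and Ddx54 at 0.63, past it. Both have long transcripts, of 4322 nt for Ddx54 and 4846 nt for Ddx51. Ddx55 had 44.5 CPM in FAPD10-exos and 41.1 CPM in vehicle cells, and Ddx50 had 59.1 CPM in FAPD10-exos and 57.8 CPM in vehicle cells. Ddx31 had 11.1 CPM in FAPD10-exos and 11.4 CPM in vehicle cells, with a ratio whose interval held 1, as did that of Ddx50. Ddx24, a large-subunit factor, had 369 CPM in FAPD10-exos and 412 CPM in vehicle cells, and Ddx52, a small-subunit factor, had 47.4 CPM in FAPD10-exos and 56.6 CPM in vehicle cells. These differed by less than 1.5-fold in either direction. Ddx18 had 112 CPM in FAPD10-exos and 135 CPM in vehicle cells, but 62.7% of its 50-base words occur in other transcripts, Gm16433 among them, and its count is uncertain. Dhx33 had 12.7 CPM in FAPD10-exos and 16.7 CPM in vehicle cells.

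Helicases of mRNA export, translation and decay were lower as a group, and all 9 measured members had a ratio below 1. Of these 7 (77.8%) were lower and 0 were higher, beside 19.8% and 17.1% of all measured genes. Under upper quartile scaling 4 were lower, beside 2132 of 12262 measured genes. The median log2 ratio was -0.65. After transcript length correction it was -0.37 and 3 stayed lower, beside 12.1% of measured protein-coding genes. The median transcript of the group had 4682 nt, and that of all measured protein-coding genes 2983.5 nt. The summed level of the group was 987 CPM in FAPD10-exos and 1919 CPM in vehicle cells. Ddx3x, which opens structured leaders at the start of translation and also serves innate immune signalling, had 325 CPM in FAPD10-exos and 786 CPM in vehicle cells (11576 and 29702 counts), 2.42-fold lower (2.36 to 2.47). Its Y-linked paralog Ddx3y had 25.2 CPM in FAPD10-exos and 57.0 CPM in vehicle cells (896 and 2154 counts), 2.26-fold lower (2.09 to 2.45). Both stayed lower after length correction, Ddx3x at -1.002 and Ddx3y at -0.80. Dhx9, or RNA helicase A, which binds double-stranded RNA and works in transcription and translation, had 360.5 CPM in FAPD10-exos and 662 CPM in vehicle cells, 1.84-fold lower (1.80 to 1.88). Dhx36, which unwinds G-quadruplexes, had 18.9 CPM in FAPD10-exos and 32.6 CPM in vehicle cells, 1.72-fold lower (1.57 to 1.898).

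The export helicase Ddx19a, which releases proteins from mRNA at the nuclear pore, had 92.3 CPM in FAPD10-exos and 145 CPM in vehicle cells, 1.57-fold lower (1.5 to 1.64). Its near copy Ddx19b had 46.2 CPM in FAPD10-exos and 53.7 CPM in vehicle cells. Reads of this pair may be split between the copies, so both values are uncertain. Dhx29, which helps small ribosomal subunits scan structured leaders, had 51.5 CPM in FAPD10-exos and 80.6 CPM in vehicle cells, 1.56-fold lower (1.48 to 1.66). Ddx6, which represses translation and joins decapping in P-bodies, had 61.97 CPM in FAPD10-exos and 96.4 CPM in vehicle cells, 1.56-fold lower (1.47 to 1.64), and with a transcript of 6065 nt it stood at -0.17 after length correction. Thus Ddx3x, Ddx3y and Ddx19a kept the 1.5-fold difference after that correction, and Dhx9, Dhx36, Dhx29 and Ddx6 did not. Dhx34, a factor of nonsense-mediated decay, had 4.58 CPM in FAPD10-exos and 6.48 CPM in vehicle cells.

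**Figure D3:**
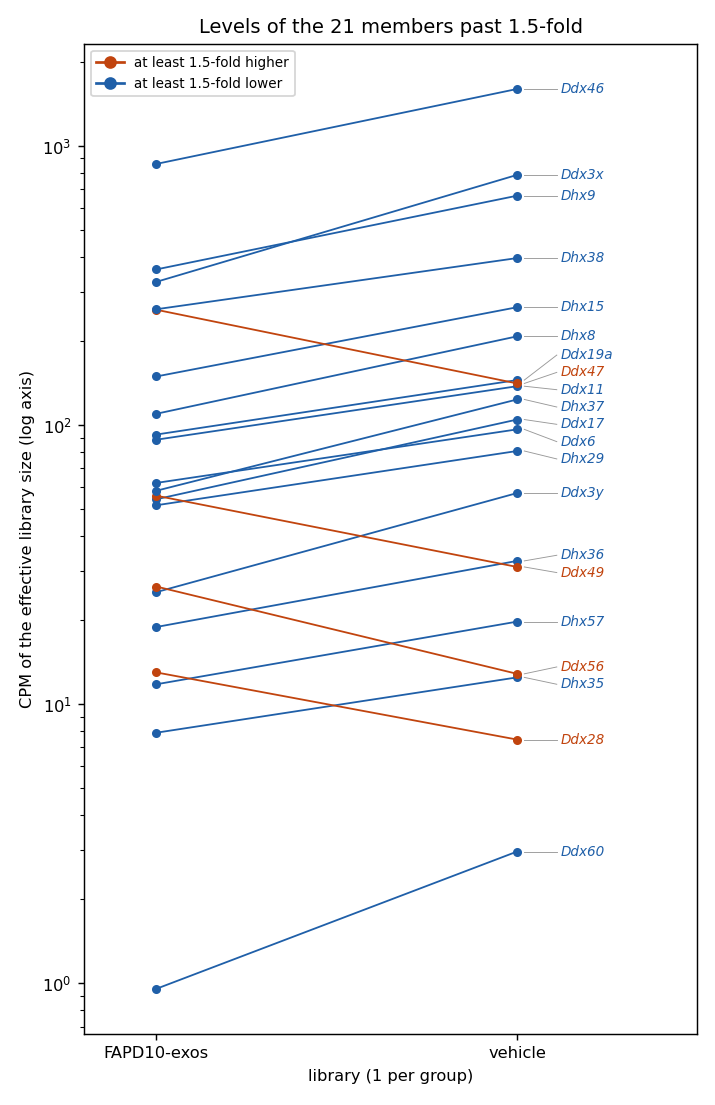
Level of the 21 members at least 1.5-fold apart in the FAPD10-exos and the vehicle library, in CPM of the scaled library on a log axis; each line joins the 2 values of a gene. The 17 blue lines of lower members span levels from about 1 CPM (Ddx60, 0.956 CPM in FAPD10-exos and 2.96 CPM in vehicle cells) to Ddx46 (860.4 CPM in FAPD10-exos and 1596 CPM in vehicle cells).

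Ddx60, an interferon-inducible helicase that aids the RNA sensor RIG-I, had the lowest ratio of all members. It had 34 counts, or 0.956 CPM, in FAPD10-exos and 112 counts, or 2.96 CPM, in vehicle cells, 3.10-fold lower (2.10 to 4.70). Its level was the lowest of the measured members, so its interval is the widest, and with counts halved, since both ends of a read pair may have been counted, the interval was 1.78 to 5.69. Dhx58, or LGP2, a regulator of the same sensors, had 10.51 CPM in FAPD10-exos and 10.7 CPM in vehicle cells, with a ratio of 0.981 (0.8499 to 1.13). RIG-I itself, listed as Rigi and formerly named Ddx58, is outside the symbol pattern and had 569 counts in FAPD10-exos and 984 counts in vehicle cells, 1.63-fold lower (1.47 to 1.81). Rigi stood at -0.50 after transcript and at -0.36 after exon length correction, inside the limit both times. Ifih1, or MDA5, another sensor outside the pattern, had 9.72 CPM in FAPD10-exos and 11.01 CPM in vehicle cells, with a ratio of 0.883 (0.764 to 1.021). As scaled, Ddx60 and Rigi were thus lower, and the intervals of Dhx58 and Ifih1 held 1.

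The smaller role groups held members on both sides. Ddx28, which builds the mitochondrial ribosome, had 13.0 CPM in FAPD10-exos and 7.46 CPM in vehicle cells (462 and 282 counts), 1.74-fold higher (1.497 to 2.02). Dhx30, another factor of the mitochondrial ribosome, had 57.4 CPM in FAPD10-exos and 69.3 CPM in vehicle cells. The 2 members that process snRNPs and tRNAs had ratios above 1 without passing 1.5-fold. Ddx20, or Gemin3, of the complex that assembles snRNPs had 102 CPM in FAPD10-exos and 71.6 CPM in vehicle cells, and Ddx1 of the tRNA ligase complex had 425 CPM in FAPD10-exos and 349 CPM in vehicle cells. Ddx1 passed the limit after transcript length correction, at 0.69, but not after exon length correction, at 0.30. Ddx11, the DNA helicase that serves sister chromatid cohesion, had 88.5 CPM in FAPD10-exos and 138 CPM in vehicle cells, 1.55-fold lower (1.49 to 1.63). Dhx57, a member with little known of its role, had 11.8 CPM in FAPD10-exos and 19.7 CPM in vehicle cells, 1.68-fold lower (1.49 to 1.89). The others lay inside the limits. Ddx43, known from testis and tumours, had 26.2 CPM in FAPD10-exos and 23.6 CPM in vehicle cells, and Ddx59 had 7.98 CPM in FAPD10-exos and 5.90 CPM in vehicle cells. Dhx32 had 16.3 CPM in FAPD10-exos and 23.2 CPM in vehicle cells, and Dhx40 had 22.1 CPM in FAPD10-exos and 24.8 CPM in vehicle cells.

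The 6 members with the highest mean of both libraries in level per length, in CPM per 1000 bases of exon, were Ddx21, Ddx5, Ddx10, Ddx27, Ddx46 and Ddx3x. Ddx21 had 219 in FAPD10-exos and 327 in vehicle cells, Ddx5 had 241 in FAPD10-exos and 260.1 in vehicle cells, and Ddx10 had 269 in FAPD10-exos and 216 in vehicle cells. Ddx10 thus led in FAPD10-exos cells and Ddx21 in vehicle cells. Ddx27 had 183 in FAPD10-exos and 155 in vehicle cells, Ddx46 had 118 in FAPD10-exos and 219 in vehicle cells, and Ddx3x had 61.6 in FAPD10-exos and 149 in vehicle cells. Of all counts on members, the spliceosome group took 43.1% in FAPD10-exos and 45.8% in vehicle cells. Ribosome biogenesis took 39.99% in FAPD10-exos and 33.6% in vehicle cells, and export, translation and decay took 9.44% in FAPD10-exos and 14.8% in vehicle cells. The nucleolar members thus held a larger share and the translation members a smaller share of helicase counts in FAPD10-exos cells. The summed level of the ribosome biogenesis group was not higher, at 4178 CPM in FAPD10-exos and 4351 CPM in vehicle cells. That of all measured members was 10449 CPM in FAPD10-exos and 12947 CPM in vehicle cells.

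Several members are paralogs of each other, which allows a comparison inside a pair that does not depend on how the libraries were scaled. The share is not corrected for transcript length, which differs inside the pairs. Ddx3x and Ddx3y are identical at 84.7% of aligned coding bases, and Ddx3y took 7.18% (6.74 to 7.65%) of their joint counts in FAPD10-exos and 6.76% (6.49 to 7.04%) in vehicle cells. These intervals overlap, and a difference between the X-linked and the Y-linked copy was not detectable at this depth. Ddx5 and Ddx17, identical at 72.2% of bases, differed in this: Ddx17 took 3.75% (3.59 to 3.92%) of their joint counts in FAPD10-exos and 6.50% (6.31 to 6.70%) in vehicle cells. After transcript length correction Ddx17 stood at -0.61 and Ddx5 at 0.09 in log2. In the nucleolar pair, identical at 73.4%, Ddx50 took 4.95% (4.75 to 5.16%) in FAPD10-exos and 3.30% (3.16 to 3.44%) in vehicle cells, beside Ddx21. The transcript of Ddx50 has 2535 nt and that of Ddx21 4722 nt. Their log2 ratios were 0.03 for Ddx50 and -0.58 for Ddx21 as scaled, and -0.03 and -0.24 after transcript length correction. With exon length correction they lay further apart, at 0.61 for Ddx50 and -0.42 for Ddx21. Of Ddx39b and Ddx39a, identical at 81.6%, Ddx39b took 29.1% (28.3 to 29.9%) in FAPD10-exos and 24.8% (24.1 to 25.6%) in vehicle cells. Their log2 ratios were 0.27 for Ddx39b and -0.04 for Ddx39a as scaled, and 0.26 and 0.17 after length correction. Of Ddx19b and Ddx19a, Ddx19b took 33.4% (32.0 to 34.7%) in FAPD10-exos and 27.1% (26.1 to 28.1%) in vehicle cells. After length correction Ddx19b stood at 0.39 and Ddx19a at -0.70. That pair is identical at 93.6% of bases and has the same 42-base stretch around motif II:
Ddx19a: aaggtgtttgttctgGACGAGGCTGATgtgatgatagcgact
Ddx19b: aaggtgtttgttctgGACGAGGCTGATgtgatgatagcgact
Of its 50-base words, Ddx19a shares 33.3% with other transcripts and Ddx19b 12.7%, whereas Ddx3x shares 3.25% and Ddx3y 0.0440%.

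The ratio of the members went with the length of their transcripts, as it did over all genes. Over the 50 measured members Spearman's rho between log2 ratio and length was -0.63, and over 9968 measured protein-coding genes it was -0.60; these are correlations across genes of the same 2 libraries, and genes are not independent replicates. For the 17 shortest members (1764 to 2955 nt) the median was 0.15 in log2, with 4 higher and 1 lower. For the 17 of middle length (3010 to 4561 nt) it was -0.26, with 0 higher and 6 lower. For the 16 longest (4600 to 6612 nt) it was -0.70, with 0 higher and 10 lower. After correction the same groups had medians of 0.19, -0.22 and -0.30. All 4 higher members thus came from the shortest group, while the trend with length was shared by all measured protein-coding genes. Over measured genes of all lengths 17.1% were higher and 19.8% lower as scaled. These shares were not computed within each range of length. The lower members after transcript length correction were Ddx60, Ddx3x, Ddx3y, Dhx37, Dhx15, Dhx8, Ddx17 and Ddx19a. The higher ones were Ddx56, Ddx49, Ddx28, Ddx54, Ddx1 and Ddx51. After exon length correction Dhx38 took the place of Dhx15 among the lower ones. The higher ones were then Ddx56, Ddx47, Ddx49, Ddx54 and Ddx50. The part of length in the remaining differences was not tested.

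**Figure D4:**
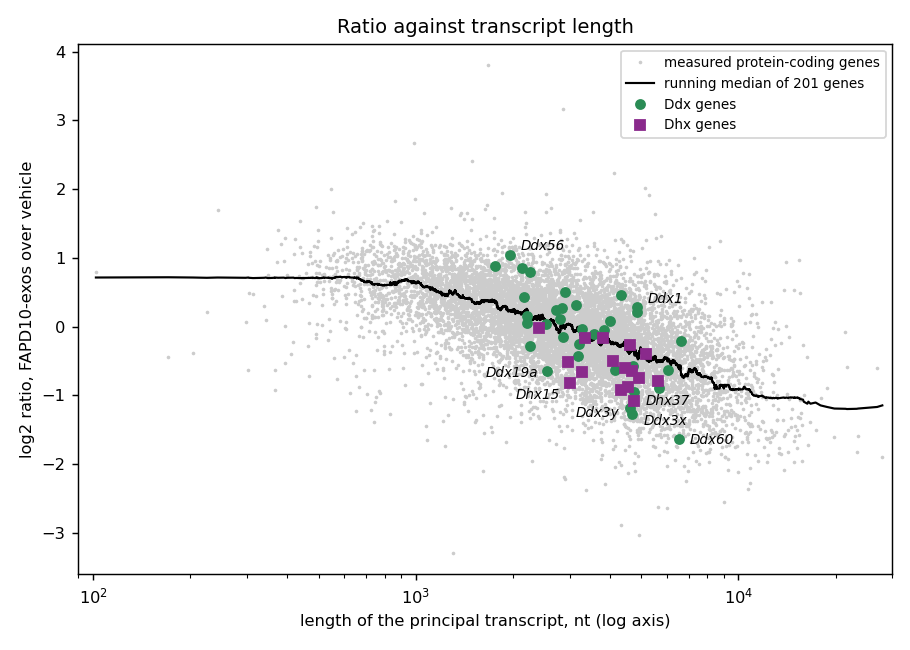
Log2 ratio of FAPD10-exos over vehicle against the length of the principal transcript in nt (log axis) for measured protein-coding genes (grey), Ddx genes (green circles) and Dhx genes (purple squares), with the running median as a line. Ddx60, Ddx3x, Ddx3y and Dhx37 lie below the line at their length, and Ddx56 and Ddx1 lie above it.

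Promoter sequences from 250 bases before to 50 bases after the start of each gene were taken from RefSeq on GRCm38.p6 and matched 44 of the 50 measured members; Dhx38, Ddx6, Ddx23, Ddx39a, Dhx58 and Ddx11 had no entry in the table used. These coordinates are not on the build of the deposited table, for which no usable build was stated. Short patterns were searched on both strands, each on its own, so that matches of different patterns may overlap. The first promoter is shown because Ddx60 had the lowest ratio, with matches to the interferon-stimulated response element pattern (GAAA, any 2 bases, then GAAA) in capitals. The other 2 are a lower and a higher member that both hold the ETS pattern CCGGAAG, in capitals in the orientation found.
Ddx60, chr8:61927837-61928136, plus strand: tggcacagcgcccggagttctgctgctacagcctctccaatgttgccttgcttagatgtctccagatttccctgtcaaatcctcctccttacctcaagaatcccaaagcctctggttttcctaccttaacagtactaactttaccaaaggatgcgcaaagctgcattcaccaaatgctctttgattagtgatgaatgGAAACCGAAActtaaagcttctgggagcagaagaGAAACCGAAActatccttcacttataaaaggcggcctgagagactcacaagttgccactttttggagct
Dhx9, chr1:153487611-153487910, minus strand: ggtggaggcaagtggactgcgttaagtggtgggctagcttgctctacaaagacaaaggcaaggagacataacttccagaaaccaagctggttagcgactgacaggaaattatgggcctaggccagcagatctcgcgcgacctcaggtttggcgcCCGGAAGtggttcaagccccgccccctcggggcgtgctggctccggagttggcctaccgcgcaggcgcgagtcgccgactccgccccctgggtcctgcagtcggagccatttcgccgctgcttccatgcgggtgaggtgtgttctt
Ddx47, chr6:135011362-135011661, plus strand: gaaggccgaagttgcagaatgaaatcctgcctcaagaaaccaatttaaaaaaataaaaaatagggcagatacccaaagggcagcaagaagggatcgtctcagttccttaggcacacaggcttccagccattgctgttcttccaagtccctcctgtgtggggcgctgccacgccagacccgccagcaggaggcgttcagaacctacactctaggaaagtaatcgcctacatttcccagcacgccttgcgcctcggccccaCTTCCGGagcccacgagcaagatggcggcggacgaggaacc
The response element pattern was found in 2 of the 44 members, Ddx60 and Ddx49, or 4.55%, beside 3.83% of 7982 measured protein-coding genes, and it lay in a lower and a higher member. The ETS pattern was found in 19 of the 44 members, or 43.2%, beside 23.2% of measured protein-coding genes and 9.93% of all 27025 genes with a promoter. Of members with a promoter, 6 of the 14 lower and 2 of the 4 higher ones held it, so it occurred in both directions.

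The pattern CCAAT was found in 21 of the 44 members, or 47.7%, beside 43.7% of measured protein-coding genes; it was in 4 of the 14 lower and in 4 of the 4 higher members. The SP1 pattern GGGCGG was found in 30 members, or 68.2%, beside 70.5%, and it was in 9 of the 14 lower and 1 of the 4 higher members. The E-box CACGTG was in 5 members, or 11.4%, beside 12.2%. The pattern TTCNNNGAA, to which STAT proteins bind, was in 4 members, or 9.09%, beside 8.22%. The NRF1 pattern (GCGC, AT, then GCGC) was in 2 members, Dhx34 and Dhx37, or 4.55%, beside 2.72%. A match is a description of letters in these windows, and no match says only that the letters are not there.

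Of 24 helicases of the same superfamilies with other names, 20 were measured. Of these 1 (5%) was higher and 8 (40%) were lower, beside 17.1% and 19.8% of all measured genes, with a median log2 ratio of -0.15. That median was -0.09 after transcript length correction, with 2 of 19 higher and 4 lower. After correction for exon length it was 0.08, with 1 higher and 4 lower, and under total counts 0 were higher and 8 lower. Hfm1, Tdrd9, Tdrd12 and Mov10l1, helicases known from the germ line, were at 0 in both libraries. Eif4a1, the helicase of cap-dependent translation, which like Ddx3x acts on mRNA leaders, had 631 CPM in FAPD10-exos and 419 CPM in vehicle cells, 1.51-fold higher (1.48 to 1.54). Eif4a1 was thus on the other side from Ddx3x, although its transcript of 1774 nt is short and it stood at 0.23 after length correction. Snrnp200, or Brr2, which unwinds U4 from U6 in the spliceosome, had 234 CPM in FAPD10-exos and 495 CPM in vehicle cells, 2.11-fold lower (2.06 to 2.17), and stood at -0.34 after transcript length correction, inside the limit. Mtrex, the helicase of the nuclear exosome, had 156 CPM in FAPD10-exos and 269 CPM in vehicle cells, 1.73-fold lower (1.67 to 1.78). Helz2 had 13.3 CPM in FAPD10-exos and 37.7 CPM in vehicle cells, and Znfx1, which senses viral RNA, had 62.1 CPM in FAPD10-exos and 161 CPM in vehicle cells. Ythdc2, Ascc3 and Helz were also among the lower ones. Ythdc2 had 6.32 CPM in FAPD10-exos and 15.3 CPM in vehicle cells. Ascc3, which clears stalled ribosomes, had 13.5 CPM in FAPD10-exos and 27.1 CPM in vehicle cells, and Helz had 23.9 CPM in FAPD10-exos and 45.7 CPM in vehicle cells. After transcript length correction Ascc3 at -0.27 and Helz at -0.41 lay inside the limit, and Mtrex at -0.62, Helz2 at -0.60, Znfx1 at -0.74 and Ythdc2 at -0.64 stayed lower, of which Mtrex was inside the limit after exon length correction, at -0.57. The most counted of those inside the limits were Eif4a2, Upf1, Eif4a3 and Dicer1. Eif4a2 had 122 CPM in FAPD10-exos and 128 CPM in vehicle cells, and Eif4a3, of the exon junction complex, had 113 CPM in FAPD10-exos and 93.4 CPM in vehicle cells. Upf1, of nonsense-mediated decay, had 118 CPM in FAPD10-exos and 109.8 CPM in vehicle cells, and Dicer1, which cuts microRNA precursors, had 62.4 CPM in FAPD10-exos and 67.8 CPM in vehicle cells.

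A further list held 24 known cofactors of the members and of helicases outside the pattern, such as Eif4a3 and Rigi. All were measured. Of these 2 (8.33%) were higher and 5 (20.8%) were lower, beside 17.1% and 19.8% of all measured genes, so the lower share was near that of all genes. The median log2 ratio was -0.29, and it was -0.05 after transcript length correction and -0.12 after exon length correction. Under total counts 2 were higher and 9 lower. The higher ones were Magoh, a core protein of the exon junction complex that holds Eif4a3, with 212 CPM in FAPD10-exos and 119 CPM in vehicle cells, and Alyref, an export adaptor that works with Ddx39b, with 329 CPM in FAPD10-exos and 193 CPM in vehicle cells. After transcript length correction Alyref stood at 0.95 in log2 and stayed higher, whereas Magoh stood at 0.16 and did not. The lower ones were Cnot1, Patl1, Nup214, Casc3 and Trim25. Cnot1, the scaffold of the deadenylase that binds Ddx6, had 49.9 CPM in FAPD10-exos and 139.7 CPM in vehicle cells, 2.80-fold lower (2.65 to 2.96). Patl1, a decapping factor that also binds Ddx6, had 23.8 CPM in FAPD10-exos and 56.2 CPM in vehicle cells, 2.36-fold lower (2.18 to 2.56). After transcript length correction Cnot1 stood at -0.67 and Patl1 at -0.98, and both stayed lower, but after exon length correction Cnot1 stood at -0.58, inside the limit. Nup214, the pore protein that binds the Ddx19 helicases, had 19.1 CPM in FAPD10-exos and 36.9 CPM in vehicle cells, and at -0.37 after transcript length correction it was inside the limit. Casc3, of the exon junction complex, had 82.2 CPM in FAPD10-exos and 158 CPM in vehicle cells, and Trim25, a ligase known from RIG-I signalling, had 63.9 CPM in FAPD10-exos and 149 CPM in vehicle cells. Inside the limits, the most counted cofactor was Eif4g1, the scaffold of the cap-binding complex, with 867 CPM in FAPD10-exos and 1107 CPM in vehicle cells. Rbm8a, the partner of Magoh, had 578 CPM in FAPD10-exos and 434 CPM in vehicle cells, and Lsm14a, a P-body protein that binds Ddx6, had 87.6 CPM in FAPD10-exos and 97.8 CPM in vehicle cells. Cmtr1, a cap methyltransferase that binds Dhx15, had 90.7 CPM in FAPD10-exos and 130.3 CPM in vehicle cells, uncertain because other genes cover 75.8% of its exons. In these lists as among the members, genes lay on both sides, and no test sets the lists apart from other genes.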

How the data were processed

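Total RNA of 2 cultures was sequenced, 1 library each, so no residual degrees of freedom were left and no p-value was computed. The authors deposited a table of raw counts per gene symbol for both libraries, in the layout of featureCounts per the file headers, and its columns were matched through the labels. The submitters' processing notes name fastp 0.23.4, STAR 2.5.3a, featureCounts and the build GRCh38, which is human although the symbols are mouse, so no usable build was stated. The strand setting and the treatment of multi-mapped reads were not given in the sources. Overlapping and antisense genes therefore cannot be told apart, and members with over 20% of exon length or 50-base words in other genes were called uncertain.

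Of genes with 1 to 50 counts, 76.3% of the FAPD10-exos and 75.1% of the vehicle counts were even, so both ends of a pair may have been counted, and intervals were repeated with halved counts. Counts were scaled by TMM (edgeR 4.0.16 in R 4.3.3; factors 0.957 for FAPD10-exos and 1.05 for vehicle), and ratios were given exact Clopper-Pearson 95% intervals from the FAPD10-exos share of both counts. Measured genes (12264) had a mean of at least 1 CPM. Length correction subtracted the running median of 201 genes ordered by the principal transcript of GENCODE M21, where Ddx39a was matched as Ddx39 and Rigi as Ddx58. Motif II came from the coding sequences of M21, and 50-base words from its transcripts. Alternatives used DESeq2 1.42.0 for median of ratios. The procedure was tested on simulated counts. Scripts ran on scipy 1.17.1, pandas 2.3.3, numpy 2.4.6 and matplotlib 3.10.9 under Python 3.11.15.

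The members, role groups and lists were chosen with earlier results of these data known. Each member with a mean of at least 1 CPM was named with both values, with interval for those at least 1.5-fold apart and the 6 with the highest level per length. The motif II classes, shared words, pair shares, promoter patterns and Rigi, and the named members inside those descriptions, were added after values were seen. Some genes given by the rule for named genes are not reported here.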

Additional observations from a re-analysis of the deposited data

How the results depend on the processing

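The count of higher members was 4 under every scaling, that by TMM factors from protein-coding genes included. It was also 4 with halved counts, with 1 CPM added, with no filter, with a filter of 10 CPM and without 10 close paralogs. It was 5 after exon length correction, 6 after transcript length correction and 1 at a 2-fold threshold. The count of lower members was 17, and it was 4 at a 2-fold threshold and 8 after either length correction; it was 20 under total counts, 18 under median of ratios, 12 under upper quartile and 13 without close paralogs. The median log2 ratio of the members was -0.24, and it was -0.36 under total counts, which moved the median of all measured genes by -0.13, and -0.16 after transcript length correction. Among all measured genes called, 46.3% were higher in FAPD10-exos cells, and 32.3% under total counts. Of the 21 members called, all kept the call under total counts, median of ratios, halved counts and 1 CPM added, and none changed direction under any alternative. Upper quartile ended 5 calls (Ddx11, Ddx19a, Ddx6, Dhx29 and Dhx38). Transcript length correction ended 10 (Ddx11, Ddx46, Ddx47, Ddx6, Dhx29, Dhx35, Dhx36, Dhx38, Dhx57 and Dhx9), and exon length correction also 10, of which Ddx28 and Dhx15 took the place of Ddx47 and Dhx38. Ddx21 passed the 1.5-fold limit under total counts, at -0.71, and median of ratios, at -0.62. No paired analysis was possible because each group held 1 library. Depth limits the least counted members, above all Ddx60 with 34 counts in FAPD10-exos and 112 in vehicle cells.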
